A study of Homo sapiens with 6 samples.

Results

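Mitochondrial ribosomal protein (MRP) genes encode proteins of the ribosome that works inside mitochondria. The 78 genes described here were the rows of the deposited expression table whose name was MRPL (large subunit) or MRPS (small subunit) followed by a number and at most 1 letter, of 27238 rows in all. Each of these names occurred once. The cells were QBC-939, a human line labelled as cholangiocarcinoma (bile duct cancer), with no genotype given. The control group was 3 libraries from cells given a scrambled shRNA, and the other group was 3 libraries from cells given an shRNA against Bmi1, all taken after 48 h. The series describes independent transfections. The design text calls the control reagent an siRNA in 1 place, and the sources used here do not say how many shRNA sequences there were. No untransfected cells are among the 6 samples.

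All MRP proteins are encoded in the nucleus, made in the cytosol and imported into mitochondria. There they join the ribosomal RNAs of the mitochondrial genome to form a large and a small subunit. The small subunit reads the mitochondrial mRNA, and the large subunit joins amino acids at the peptidyl transferase centre and passes the new chain out through an exit tunnel at the inner membrane. The products are hydrophobic core subunits of the oxidative phosphorylation complexes. Many MRP proteins have a counterpart in bacterial ribosomes, while others are found only in mitochondria. The names do not always give the place of the protein: MRPS30 and MRPS18A sit in the large subunit, and MRPS36 is a component of the 2-oxoglutarate dehydrogenase complex and not of the ribosome.

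BMI1, the targeted gene and a subunit of Polycomb repressive complex 1, stood at 6.65, 5.34 and 6.09 FPKM in the controls and 1.49, 1.19 and 2.65 FPKM with the shRNA. FPKM are fragments per kilobase of transcript, scaled to the mapped fragments of the library. The mean in the Bmi1 shRNA libraries was 29.5% of the control mean (log2 fold change -1.37, SE 0.19, adjusted p = 0.00162, limma with Benjamini-Hochberg adjustment), and the groups did not overlap. An exact two-sided permutation test of the FPKM values gave p = 0.1, the smallest that 3 against 3 libraries allow.

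Total FPKM per library ran from 332910 to 341268 in the controls and from 352800 to 360371 in the Bmi1 shRNA libraries, and the number of reads is unknown. The 6 bile duct epithelial markers given here (KRT7, KRT19, KRT8, KRT18, EPCAM, SOX9) each had a mean of at least 1 FPKM. Their summed level, mostly KRT18 and KRT8, was 1776 to 1935 FPKM in the controls and 1516 to 1749 FPKM with the shRNA. KRT7 had means of only 2.74 FPKM in the controls and 2.80 FPKM with the shRNA, and 2 of the 6 were lower. Of 5 hepatocyte genes 3 passed that minimum, 2 called higher and 1 lower, and the sum over the 5, mostly SERPINA1, was 158 to 168 FPKM in the controls and 229 to 241 FPKM with the shRNA. Of 5 intestinal genes 2 passed it, 1 called higher and 1 lower, with sums of 415 to 421 and 571 to 600 FPKM, nearly all from LGALS4. The immune genes summed to 11.8 to 13.0 and 7.73 to 9.27 FPKM, mostly CD68, the fibroblast genes to at most 0.445 FPKM and the adipocyte genes to at most 1.98 FPKM. CYP3A4 and CDH17 were at or near 0, and ALB, CDX1, PTPRC, CD3E, COL1A2, COL3A1, DCN, ADIPOQ, FABP4 and LEP were not analysed here. The part of these marker levels in the MRP result was not tested. In bulk RNA, a different number of cells of a kind and a different amount of RNA per cell cannot be told apart.

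MRP mRNAs were mostly higher in the Bmi1 shRNA libraries. Of the 78 genes, 48 (61.5%) were called higher, 4 (5.13%) were called lower and 26 were not called, at an adjusted p under 0.05 in limma over the 11016 rows averaging 1 FPKM or more. All 78 MRP genes passed that minimum. Over all tested rows 57.1% were called, 28.6% higher and 28.5% lower, so the MRP genes stood above the background in the upward direction and below it in the downward one. The median log2 fold change of the MRP genes was 0.34, with a range from -1.18 to 1.30, and that of all tested rows was -0.02. Each fold change is a difference of log2(FPKM + 1), which understates the change of genes with low values.

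The counts changed when a trend with base composition and length was taken out. Across all 10206 tested rows with a known transcript, genes of lower GC content had higher fold changes (Spearman rho -0.474), and shorter transcripts did too (rho -0.274). The MRP transcripts had a median GC content of 48.9% against 50.4% for all tested rows, and a median length of 1516 nt against 2920 nt. After the trend with GC content and length was removed from each library, 28 MRP genes were higher and 10 were lower, beside 19.1% and 20.6% of all rows in that fit. The median MRP log2 fold change was then 0.10. The removal used the longest coding transcript of each gene. With medians over coding transcripts, chosen after seeing the data, 33 MRP genes were higher and 6 lower. Of all 10206 rows, 2135 were then higher and 2282 lower. Removal of the trend takes out every change that follows GC content or length, whatever its source.

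**Figure D1:**
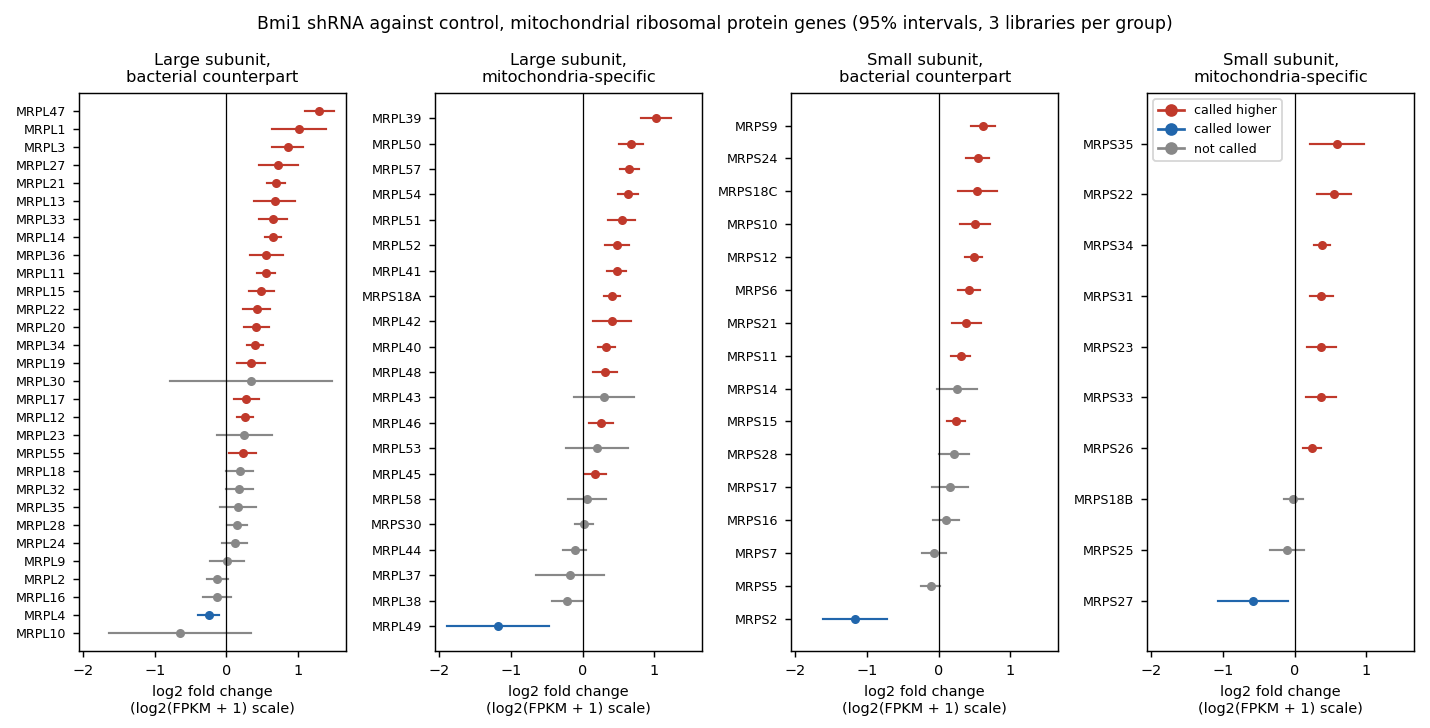
Log2 fold change (Bmi1 shRNA against control, log2(FPKM + 1) scale) of the 77 MRP genes of the ribosome, in panels by subunit and by presence of a bacterial counterpart. Points are limma estimates, lines are 95% intervals, and colours give the call at an adjusted p under 0.05. Most points lie to the right of 0 in every panel, MRPL47 is farthest right, and MRPL49 and MRPS2 are farthest left.

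The 6 libraries gave MRP sums of 3250, 3083 and 3261 FPKM in the controls and 3993, 4082 and 3872 FPKM with the shRNA. In this sum the lowest shRNA library was thus above the highest control. The median MRP level was 24.1, 22.0 and 25.1 FPKM in the controls and 26.1, 28.8 and 23.3 FPKM with the shRNA, where the groups overlapped. The median over genes of log2(FPKM + 1) minus the control mean was 0.05, -0.05 and 0.01 in the controls. With the shRNA it was 0.35, 0.38 and 0.28. The mean sum was 3198 ± 99.6 FPKM in the controls and 3982 ± 105 FPKM with the shRNA (SD, n = 3 each). As a share of all FPKM in a library, MRP genes held 0.951 ± 0.0244% in the controls and 1.11 ± 0.0185% with the shRNA.

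Single genes followed the sum in most cases. For 51 genes all 3 shRNA libraries lay above all 3 controls, and for 7 genes they lay below, where 32.3% and 33.1% of all tested rows showed such a separation. In the ratio of mean FPKM, 3 genes exceeded 2-fold, MRPL47, MRPL1 and MRPL39, beside 6.02% of all rows. The means of MRPL49 and MRPS2 fell below 0.5 of the control mean, beside 1.74% of all rows. The MRP response was thus broad and small for most members: the 48 higher genes ran from a log2 fold change of 0.18 in MRPL45 to 1.30 in MRPL47.

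**Figure D2:**
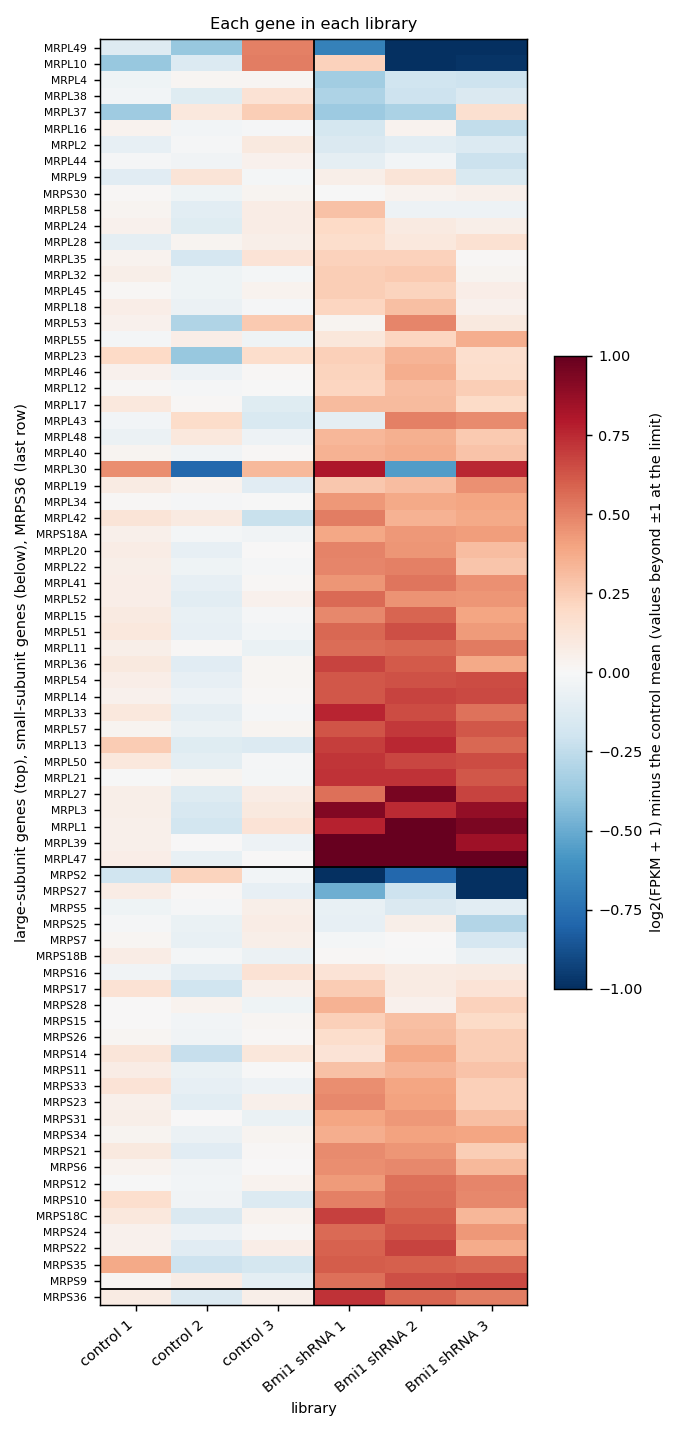
Each MRP gene (rows) in each of the 6 libraries (columns), as log2(FPKM + 1) minus the mean of the 3 controls. Red is higher and blue is lower, with colours at their limit beyond 1. Most rows turn red in all 3 Bmi1 shRNA libraries, and the rows of MRPL49, MRPL10, MRPL30, MRPL37 and MRPS27 differ most among libraries of a group.

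Higher calls made up 60.8% of the large-subunit genes and 61.5% of the small-subunit genes. In the large subunit 31 of 51 genes were higher and 2 lower, with a median log2 fold change of 0.33. In the small subunit 16 of 26 were higher and 2 lower, with a median of 0.34. After trend removal the large subunit had 19 higher and 6 lower, and the small subunit 9 higher and 3 lower. When each library was scaled to a total of 1000000, 6 large-subunit genes were lower in place of 2. The summed level of the large subunit was 2292 ± 76.3 FPKM in the controls and 2884 ± 70.7 FPKM with the shRNA, and that of the small subunit 891 ± 26.5 and 1075 ± 35.0 FPKM (SD, n = 3 each). The large sum was 2.57 ± 0.0546 times the small sum in the controls and 2.68 ± 0.0327 times with the shRNA. A difference between the subunits was not tested.

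Both proteins with a bacterial counterpart and proteins specific to mitochondria had more higher than lower calls. Among the large-subunit genes, 18 of 30 with a counterpart were higher and 1 was lower, against 13 of 21 and 1 for the mitochondria-specific genes, with medians of 0.34 and 0.32. Among the small-subunit genes, 9 of 16 with a counterpart and 7 of 10 without were higher, with 1 lower in each class and medians of 0.28 and 0.37. With the trend removed the large-subunit genes with a counterpart had 11 higher and 3 lower, and those without 8 and 3. In the small subunit the counts were then 6 and 2 with a counterpart, and 3 and 1 without.

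No small-subunit gene exceeded 2-fold in mean FPKM. MRPS9, with a bacterial counterpart, had the largest rise of that subunit on the log2(FPKM + 1) scale, at 7.10, 7.41 and 6.46 FPKM in the controls and 10.7, 11.5 and 11.6 FPKM with the shRNA (log2 fold change 0.62, SE 0.07, adjusted p = 0.000738), and was higher with the trend removed too. In the ratio of mean FPKM MRPS22 led the subunit, 1.77-fold against 1.61-fold for MRPS9. MRPS35, a mitochondria-specific protein, stood at 55.8, 36.9 and 37.7 FPKM in the controls and 65.5, 65.2 and 64.1 FPKM with the shRNA (log2 fold change 0.59, SE 0.16, adjusted p = 0.017). Its first control was well above the others, and the call ended without the second or the third control (adjusted p up to 0.05444) and with the trend removed (log2 fold change 0.0902, adjusted p = 0.64).

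The largest rise was that of MRPL47, a large-subunit protein of the family that sits near the mouth of the exit tunnel. MRPL47 stood at 13.3, 11.9 and 12.7 FPKM in the controls and 34.2, 34.5 and 28.9 FPKM with the shRNA. All shRNA libraries were more than double any control, and the mean went from 12.6 ± 0.680 to 32.5 ± 3.18 FPKM, 2.58-fold (log2 fold change 1.30, SE 0.09, adjusted p = 0.000252). With the trend removed the log2 fold change was 0.49 (adjusted p = 0.00155). MRPL39, a mitochondria-specific protein of the large subunit, stood at 6.22, 5.99 and 5.75 FPKM in the controls and 13.7, 14.4 and 11.6 FPKM with the shRNA. The groups were far apart, with means of 5.99 ± 0.239 and 13.2 ± 1.48 FPKM (log2 fold change 1.02, SE 0.09, adjusted p = 0.000401), and with the trend removed the log2 fold change was 0.37 (adjusted p = 0.0059).

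MRPL1, the protein of the mobile L1 stalk at which spent tRNA leaves, had the lowest level among the 8 rises that are largest on the log2(FPKM + 1) scale. In the ratio of mean FPKM, MRPS22 (1.77-fold) and MRPL42 (1.72-fold), of still lower level, would be among the 8 in place of MRPL13 and MRPL21. MRPL1 stood at 2.85, 2.27 and 3.07 FPKM in the controls and 5.33, 8.35 and 6.13 FPKM with the shRNA. Its groups did not overlap, the second shRNA library was the highest, and the log2 fold change was 1.01 (SE 0.16, adjusted p = 0.00244). The call ended with the trend removed (log2 fold change 0.28, adjusted p = 0.16). MRPL3, which lies close to the peptidyl transferase centre, stood at 20.9, 17.8 and 21.5 FPKM in the controls and 38.9, 34.3 and 37.7 FPKM with the shRNA. That is 1.84-fold in the means (log2 fold change 0.85, SE 0.09, adjusted p = 0.00064), and 0.38 on the log2 scale with the trend removed (adjusted p = 0.0169).

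MRPL27, a neighbour of the peptidyl transferase centre in bacterial ribosomes, stood at 24.1, 21.1 and 24.4 FPKM in the controls and 34.3, 45.5 and 37.6 FPKM with the shRNA. All of its shRNA libraries were above all controls, with more spread among them (log2 fold change 0.72, SE 0.11, adjusted p = 0.00251). MRPL21 stood at 26.6, 27.2 and 26.2 FPKM in the controls and 44.6, 44.8 and 41.6 FPKM with the shRNA. The libraries of each group lay close together, and the means differed 1.64-fold, with a log2 fold change of 0.69 (SE 0.05, adjusted p = 0.000318), and 0.52 with the trend removed. MRPL50, a mitochondria-specific protein, stood at 7.26, 6.16 and 6.63 FPKM in the controls and 11.6, 11.2 and 11.1 FPKM with the shRNA (log2 fold change 0.68, SE 0.07, adjusted p = 0.000599). MRPL13 stood at 13.2, 9.92 and 9.85 FPKM in the controls and 18.3, 19.0 and 16.7 FPKM with the shRNA (log2 fold change 0.67, SE 0.12, adjusted p = 0.00375). The groups did not overlap for either gene, but both calls ended with the trend removed, where the log2 fold changes were 0.12 for MRPL50 (adjusted p = 0.171) and -0.00350 for MRPL13 (adjusted p = 0.981).

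The 4 called falls were MRPL49, MRPS2, MRPS27 and MRPL4. MRPS2, a small-subunit protein with a bacterial counterpart, stood at 47.9, 64.5 and 54.2 FPKM in the controls and 20.5, 31.6 and 21.4 FPKM with the shRNA. The groups were well separated, the second library of each group was the highest, and the mean fell from 55.5 ± 8.39 to 24.5 ± 6.16 FPKM (log2 fold change -1.17, SE 0.18, adjusted p = 0.00249). With the trend removed the log2 fold change was -1.14 (adjusted p = 0.00451). MRPL49, a mitochondria-specific protein of the large subunit, stood at 34.2, 28.6 and 53.5 FPKM in the controls and 23.0, 14.5 and 12.1 FPKM with the shRNA. The third control was far above the others, the groups did not overlap, and the means were 38.7 ± 13.1 and 16.5 ± 5.75 FPKM (log2 fold change -1.18, SE 0.29, adjusted p = 0.0141, and -1.07 with an adjusted p of 0.0297 with the trend removed).

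MRPL4, a large-subunit protein with a bacterial counterpart, stood at 21.5, 22.5 and 22.4 FPKM in the controls and 17.2, 19.2 and 19.0 FPKM with the shRNA. The fall was small but the libraries of each group were close together (log2 fold change -0.25, SE 0.06, adjusted p = 0.0131, and -0.26 with the trend removed). MRPS27, a small-subunit protein of the pentatricopeptide repeat family, stood at 9.86, 9.36 and 8.70 FPKM in the controls and 6.32, 7.93 and 3.98 FPKM with the shRNA. The third shRNA library was the lowest and the groups did not overlap (log2 fold change -0.58, SE 0.20, adjusted p = 0.0476). This call ended with the trend removed (log2 fold change -0.56, adjusted p = 0.0749), and also without any 1 of the 3 controls or the first shRNA library, where the adjusted p reached 0.113.

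**Figure D3:**
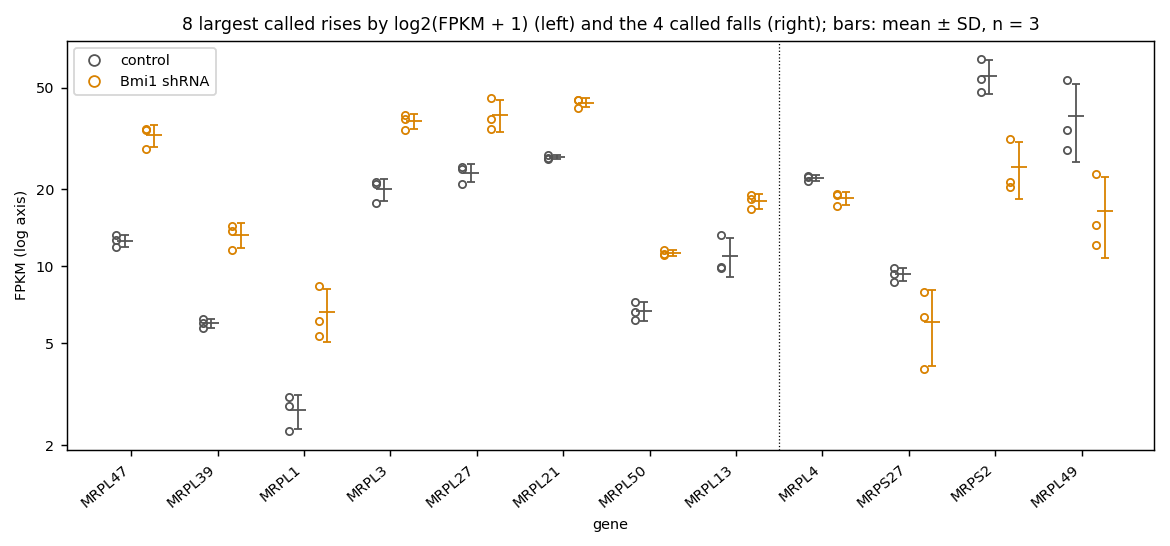
FPKM (log axis) of the 8 largest called rises by log2(FPKM + 1), left of the dotted line, and the 4 called falls, right of it. Circles are single libraries, bars are the mean ± SD (n = 3), grey is control and orange is Bmi1 shRNA. The groups do not overlap for any of the 12 genes, and MRPL49 has the widest spread among controls.

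Promoter sequences of the 3 largest rises and the 3 largest falls are shown because sites for NRF1, ETS factors (the family of GABP) and YY1 are known elements in promoters of genes for mitochondrial proteins. The windows run from 250 bases before to 50 bases after the annotated start (RefSeq, GRCh38.p14), so they cover the upstream flank and the start of the first exon. They are written 5′ to 3′ on the strand of the gene, and capitals mark matches on either strand to GCGCA, any base and GCGC (NRF1), to CCGGAAG (ETS), and to AAGATGG or AANATGG followed by CNGC (both YY1, able to overlap each other). The longer YY1 form was added after the promoters had been seen. The window of MRPL47 is chr3:179604589-179604888 (minus strand), that of MRPL39 chr21:25607432-25607731 (minus strand), that of MRPL1 chr4:77862580-77862879 (plus strand), that of MRPL49 chr11:65121933-65122232 (plus strand), that of MRPS2 chr9:135500432-135500731 (plus strand) and that of MRPS27 chr5:72320191-72320490 (minus strand). Where the table held more than 1 start, the first was used.
MRPL47: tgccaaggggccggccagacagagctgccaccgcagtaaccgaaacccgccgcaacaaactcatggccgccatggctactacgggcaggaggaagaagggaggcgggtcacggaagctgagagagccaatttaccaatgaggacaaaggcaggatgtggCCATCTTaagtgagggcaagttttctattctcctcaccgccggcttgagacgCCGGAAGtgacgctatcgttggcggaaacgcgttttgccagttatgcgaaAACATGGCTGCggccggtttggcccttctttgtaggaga
MRPL39: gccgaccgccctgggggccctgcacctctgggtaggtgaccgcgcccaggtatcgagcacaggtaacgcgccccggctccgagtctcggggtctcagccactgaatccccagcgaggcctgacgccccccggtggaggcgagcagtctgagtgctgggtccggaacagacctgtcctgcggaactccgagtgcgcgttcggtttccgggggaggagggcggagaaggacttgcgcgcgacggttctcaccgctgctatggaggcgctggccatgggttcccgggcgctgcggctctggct
MRPL1: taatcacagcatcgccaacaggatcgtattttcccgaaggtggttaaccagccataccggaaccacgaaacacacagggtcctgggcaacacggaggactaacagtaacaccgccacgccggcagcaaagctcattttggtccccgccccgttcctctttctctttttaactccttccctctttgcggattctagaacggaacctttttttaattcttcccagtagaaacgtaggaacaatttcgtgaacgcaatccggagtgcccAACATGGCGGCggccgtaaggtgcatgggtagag
MRPL49: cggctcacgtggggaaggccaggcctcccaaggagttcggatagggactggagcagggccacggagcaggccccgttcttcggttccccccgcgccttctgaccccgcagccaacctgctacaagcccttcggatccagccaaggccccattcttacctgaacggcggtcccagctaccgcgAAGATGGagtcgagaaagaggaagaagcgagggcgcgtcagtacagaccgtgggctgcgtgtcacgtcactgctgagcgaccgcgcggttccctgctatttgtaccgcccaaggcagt
MRPS2: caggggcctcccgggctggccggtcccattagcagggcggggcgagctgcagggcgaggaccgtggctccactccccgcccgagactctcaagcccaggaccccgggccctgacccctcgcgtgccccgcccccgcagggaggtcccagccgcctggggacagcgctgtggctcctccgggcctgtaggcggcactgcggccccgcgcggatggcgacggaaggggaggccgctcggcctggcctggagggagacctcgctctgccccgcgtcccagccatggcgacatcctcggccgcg
MRPS27: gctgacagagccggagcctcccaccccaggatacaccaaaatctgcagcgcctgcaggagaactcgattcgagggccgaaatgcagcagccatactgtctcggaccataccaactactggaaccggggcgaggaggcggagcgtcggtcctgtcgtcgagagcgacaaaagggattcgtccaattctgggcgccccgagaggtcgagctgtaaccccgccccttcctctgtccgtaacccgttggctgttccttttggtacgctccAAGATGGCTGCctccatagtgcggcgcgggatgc

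Of these promoters, that of MRPL47 held an ETS match and both forms of the YY1 match, MRPL1 the longer YY1 form, MRPL49 the shorter YY1 form, and MRPS27 both YY1 forms. Those of MRPL39 and MRPS2 held none of these letters in this window. Among the 69 MRP genes found in the promoter table, 29 (42.0%) held the ETS match, against 10.7% of all 27305 promoters of the same length. The longer YY1 form was in 20 (29%), against 2.45%, the shorter one in 23 (33.3%), against 6.06%, and the NRF1 match in 8 (11.6%), against 6.28%. At least 1 of the NRF1, ETS and longer YY1 matches was in 46 of the 69 (66.7%) and in 17.3% of all promoters. This combination, which leaves out the shorter YY1 form planned at first, was made after the promoters had been seen. By call, the ETS match was in 21 of 44 higher genes, 0 of 4 lower genes and 8 of 21 genes not called. The shorter YY1 form was in 15, 2 and 6 of the same genes, the longer one in 13, 1 and 6, and the NRF1 match in 7, 0 and 1. The promoters of all genes were not limited to genes expressed in these cells, and a background of expressed genes was not counted. A match describes the letters of the sequence and shows no binding.

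The 5 most abundant MRP mRNAs were MRPL41, MRPL45, MRPS34, MRPL12 and MRPL14 by mean FPKM over the 6 libraries, and all 5 were called higher. MRPL41, a mitochondria-specific protein of the large subunit, stood at 293, 264 and 282 FPKM in the controls and 379.9, 406 and 384 FPKM with the shRNA (log2 fold change 0.48, SE 0.06, adjusted p = 0.000905). MRPL14, with a bacterial counterpart, stood at 137, 128 and 134 FPKM in the controls and 204, 212 and 210.4 FPKM with the shRNA (log2 fold change 0.65, SE 0.05, adjusted p = 0.000282). MRPS34, a mitochondria-specific protein of the small subunit, stood at 193, 183 and 194 FPKM in the controls and 244, 250.5 and 249 FPKM with the shRNA (log2 fold change 0.38, SE 0.05, adjusted p = 0.000942). In these 3 genes every shRNA library was well above every control, and each call held with the trend removed.

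MRPL12, the stalk protein that recruits translation factors and is also known to bind the mitochondrial RNA polymerase, stood at 198, 195 and 196 FPKM in the controls and 228, 244 and 233 FPKM with the shRNA. The groups were separate and the rise was small (log2 fold change 0.25, SE 0.05, adjusted p = 0.00396), and the call ended with the trend removed (log2 fold change 0.0786, adjusted p = 0.146). MRPL45, which lies at the tunnel exit and takes part in holding the ribosome to the inner membrane, stood at 286, 276 and 291 FPKM in the controls and 336, 332 and 298 FPKM with the shRNA. It had the smallest rise among the called genes (log2 fold change 0.18, SE 0.06, adjusted p = 0.0413), and the call ended with the trend removed (adjusted p = 0.9997) and when any library other than the third shRNA library was left out, with adjusted p values up to 0.114. In all it ended under 15 of the 19 alternatives.

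The 4 MRP genes of lowest level, MRPL42, MRPS22, MRPS31 and MRPL19, were also called higher. MRPL42 stood at 0.970, 0.919 and 0.539 FPKM in the controls and 1.56, 1.29 and 1.34 FPKM with the shRNA (log2 fold change 0.41, SE 0.11, adjusted p = 0.0197), and the call ended without the first shRNA library (adjusted p = 0.0627) and with the trend removed (log2 fold change 0.14, adjusted p = 0.315). With the trend taken from medians over coding transcripts its estimate was -0.27. MRPS22, a mitochondria-specific small-subunit protein, stood at 1.63, 1.36 and 1.66 FPKM in the controls and 2.84, 3.08 and 2.30 FPKM with the shRNA (log2 fold change 0.55, SE 0.10, adjusted p = 0.00421), and was higher with the trend removed too. MRPS31 stood at 2.36, 2.25 and 2.09 FPKM in the controls and 3.25, 3.36 and 2.98 FPKM with the shRNA (log2 fold change 0.38, SE 0.07, adjusted p = 0.0038). All shRNA libraries of MRPS31 were above all controls in FPKM, yet the gene was called lower once the trend was removed (log2 fold change -0.33, adjusted p = 0.00386). With the trend taken from medians over coding transcripts MRPS31 was not called (log2 fold change -0.14, adjusted p = 0.0806). MRPL19 stood at 3.26, 3.11 and 2.71 FPKM in the controls and 3.84, 3.98 and 4.52 FPKM with the shRNA (log2 fold change 0.35, SE 0.08, adjusted p = 0.0121), and its estimate with the trend removed was -0.10 (adjusted p = 0.301).

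The MRPS18 paralogs, 3 genes related to the gene of bacterial protein S18, differed in their calls. MRPS18A, whose protein sits in the large subunit, stood at 86.6, 82.6 and 81.7 FPKM in the controls and 109.9, 113 and 112 FPKM with the shRNA (log2 fold change 0.41, SE 0.05, adjusted p = 0.000828, and 0.27 with the trend removed). MRPS18B, of the small subunit, stood at 60.8, 56.8 and 55.3 FPKM in the controls and 58.2, 57.4 and 55.1 FPKM with the shRNA (log2 fold change -0.02, SE 0.06, adjusted p = 0.81). MRPS18C, which takes the place of the bacterial protein, stood at 4.14, 3.33 and 3.91 FPKM in the controls and 6.68, 6.24 and 5.02 FPKM with the shRNA (log2 fold change 0.54, SE 0.11, adjusted p = 0.00733). MRPS18A and MRPS18C rose without overlap, while the groups of MRPS18B overlapped. The MRPS18C call ended with the trend removed, where the estimate was -0.19 (adjusted p = 0.136). The 3 levels are per length, and MRPS18A had the highest and MRPS18C the lowest level in every library.

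MRPS36, the dehydrogenase component that carries a ribosomal name, stood at 15.9, 13.4 and 15.7 FPKM in the controls and 25.3, 22.9 and 21.8 FPKM with the shRNA. It was called higher (log2 fold change 0.61, SE 0.09, adjusted p = 0.00186) and, with the trend removed, lower (log2 fold change -0.33, adjusted p = 0.0131). With the trend taken from medians over coding transcripts MRPS36 was not called, and its sign did not change. Its transcript has a GC content of 35.0%, at the low end of the 78.

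The calls differed with GC content. Of the 26 genes with the lowest GC content (35.0% to 45.6%), 20 were higher and 0 lower, with a median log2 fold change of 0.47. Of the middle 26 (46.4% to 52.8%), 12 were higher and 1 lower, with a median of 0.18, and of the highest 26 (53.0% to 71.9%), 16 were higher and 3 lower, with a median of 0.28. After trend removal the counts were 6 higher and 5 lower in the first class, 9 and 2 in the second, and 13 and 3 in the class of highest GC content. Most of the higher calls made after the removal thus came from GC-rich and middle genes. Across the 78 genes the Spearman rho of the fold change with GC content was -0.318 in the deposited values and 0.156 with the trend removed, where the genes share their libraries. Over all 10206 tested rows with a known transcript these values were -0.474 and -0.00938. The shares of all tested rows called within these GC classes were not counted. The class counts therefore cannot be told apart from the trend over all rows.

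**Figure D4:**
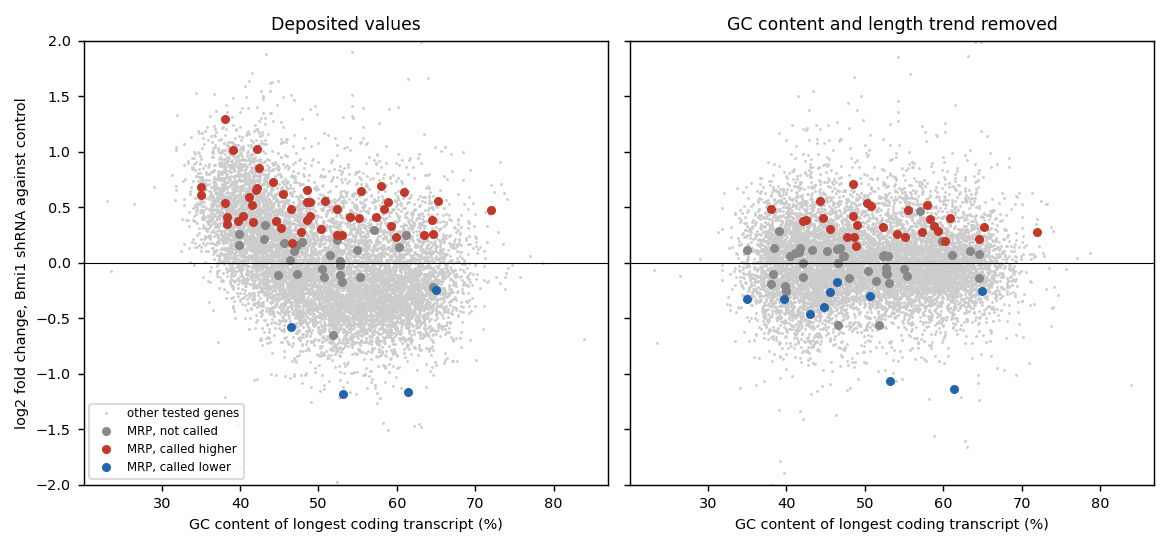
Log2 fold change against the GC content (%) of the longest coding transcript for the MRP genes (coloured by call in each fit) and all other tested genes (light grey), as deposited (left) and with the GC and length trend removed (right). Values beyond ±2 are not drawn. The grey cloud slopes down on the left and is level on the right, where 28 MRP genes are called higher and 10 lower.

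Of the 48 higher genes, 27 were called higher both ways, among them MRPS12, the protein of the decoding site, MRPL11, of the factor-binding region, and MRPS34. Another 19 were not called once the trend was removed, and MRPS31 and MRPS36 were called lower. MRPL4, MRPS2 and MRPL49 were lower both ways. MRPL28 was called higher only with the trend removed, and MRPL32, MRPS30, MRPL44, MRPS28 and MRPL16 were called lower only then. MRPS12 stood at 59.2, 58.5 and 60.9 FPKM in the controls and 80.5, 87.4 and 83.8 FPKM with the shRNA (log2 fold change 0.49, SE 0.05, adjusted p = 0.000667). MRPL44, whose protein has an RNase III-like fold, stood at 32.9, 32.5 and 34.3 FPKM in the controls and 31.2, 32.6 and 28.5 FPKM with the shRNA, with overlapping groups (log2 fold change -0.11, SE 0.07, adjusted p = 0.187, and -0.40 with an adjusted p of 0.00219 with the trend removed).

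Among the 26 genes not called, 20 had overlapping groups. A few of them varied among libraries of the same group by more than the groups differed. MRPL30 stood at 17.2, 6.65 and 15.5 FPKM in the controls and 22.2, 7.98 and 21.3 FPKM with the shRNA, so that the second library of each group was the lowest by a wide margin (log2 fold change 0.34, SE 0.47, adjusted p = 0.565). MRPL10, which anchors the MRPL12 stalk, stood at 12.5, 14.9 and 24.0 FPKM in the controls and 19.6, 6.56 and 7.86 FPKM with the shRNA, with the third control and the first shRNA library high (log2 fold change -0.65, SE 0.41, adjusted p = 0.215). MRPL37 stood at 94.6, 130.4 and 144 FPKM in the controls and 94.0, 97.1 and 135 FPKM with the shRNA (adjusted p = 0.484). For these genes a change smaller than the spread was not detectable with 3 libraries a group. MRPL58, a peptidyl-tRNA hydrolase that became part of the large subunit, was steadier at 45.6, 41.5 and 47.2 FPKM in the controls and 55.1, 43.1 and 43.1 FPKM with the shRNA, and its groups overlapped too (adjusted p = 0.631).

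Among 5 proteins of the mitochondrial ribosome that carry other names, 3 genes were higher and 0 lower. GADD45GIP1, a large-subunit protein also known as CRIF1, went from 57.5 ± 1.17 to 85.8 ± 4.70 FPKM (SD, n = 3 each, log2 fold change 0.57, SE 0.06, adjusted p = 0.000572), and its estimate with the trend removed was 0.64. CHCHD1, of the small subunit, went from 44.4 ± 5.11 to 70.9 ± 2.92 FPKM (log2 fold change 0.67, SE 0.09, adjusted p = 0.00152) and was not called with the trend removed. PTCD3, of the small subunit, went from 1.36 ± 0.12 to 2.29 ± 0.141 FPKM (log2 fold change 0.48, SE 0.07, adjusted p = 0.00186). AURKAIP1 and DAP3, both of the small subunit, were not called (log2 fold changes 0.17 and 0.10, adjusted p = 0.0787 and 0.271).

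Of 25 tested genes for the assembly of the mitochondrial ribosome, 3 were higher, 9 lower and 13 not called, with a median log2 fold change of -0.20, and after trend removal 2 were higher and 7 lower. The lower count was 17 when each library was scaled to a total of 1000000. The GTPase MTG2, which acts in large-subunit maturation, fell from 11.1 ± 0.104 to 7.30 ± 0.155 FPKM (log2 fold change -0.55, SE 0.05, adjusted p = 0.000465). FASTKD2, an RNA-binding protein of mitochondrial RNA granules, rose from 1.05 ± 0.103 to 2.23 ± 0.256 FPKM (log2 fold change 0.66, SE 0.08, adjusted p = 0.00113), while NGRN (log2 fold change -0.34, adjusted p = 0.00141) and the helicase DHX30 (log2 fold change -0.38, adjusted p = 0.00364) fell. DHX30 was not called with the trend removed. The difference between this list and the MRP genes was not tested.

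The factors that work with the ribosome were mixed. Of 15 translation factors and mRNA-binding partners, 7 were higher and 3 lower, with 3 and 2 after trend removal. The initiation factor MTIF3 went from 2.03 ± 0.194 to 4.51 ± 0.143 FPKM (log2 fold change 0.86, SE 0.07, adjusted p = 0.000332) and was not called with the trend removed. GFM2, a factor of ribosome recycling, and LRPPRC, which stabilises mitochondrial mRNAs, were higher both ways (log2 fold changes 0.56 and 0.58, adjusted p = 0.000511 and 0.00119). SLIRP, the partner of LRPPRC, was higher as deposited (log2 fold change 0.78, SE 0.08, adjusted p = 0.000594) and had an estimate of -0.11 with the trend removed. Of 20 genes for loading mitochondrial tRNAs, 3 were higher and 8 lower, with 3 and 4 after trend removal. The 20 are tRNA synthetases together with GATB, GATC and QRSL1, which are not synthetases and were not called. MARS2 fell from 10.5 ± 0.532 to 4.79 ± 0.285 FPKM (log2 fold change -1.0, SE 0.07, adjusted p = 0.000252) and RARS2 rose from 3.27 ± 0.0316 to 6.90 ± 0.744 FPKM (log2 fold change 0.88, SE 0.08, adjusted p = 0.000465). PARS2 and TARS2 were lower (log2 fold changes -0.57 and -0.42, adjusted p = 0.000692 and 0.00164).

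Of 15 tested genes that copy and transcribe the mitochondrial genome or process its RNA, 9 were higher and 3 lower, and after trend removal 4 were higher and 0 lower. TFAM, which packs and transcribes mitochondrial DNA, rose from 5.53 ± 0.770 to 12.1 ± 0.753 FPKM (log2 fold change 1.01, SE 0.10, adjusted p = 0.000523, and 0.65 with the trend removed). TRMT10C, a subunit of the mitochondrial RNase P, rose from 5.69 ± 0.935 to 14.7 ± 1.52 FPKM (log2 fold change 1.24, SE 0.12, adjusted p = 0.000533). SSBP1 and TEFM were higher as deposited (log2 fold changes 0.93 and 0.76, adjusted p = 0.000458 and 0.000707) and not called with the trend removed. POLRMT, the mitochondrial RNA polymerase to which MRPL12 binds, fell from 15.0 ± 0.777 to 11.2 ± 0.0399 FPKM (log2 fold change -0.39, SE 0.06, adjusted p = 0.00192), a gene named after its value was seen. POLRMT was not called with the trend removed (log2 fold change -0.12, adjusted p = 0.138). Among the 7 tested regulators of mitochondrial biogenesis, 2 were higher and 3 lower, and with the trend removed 0 and 1. PPRC1 fell from 13.4 ± 0.833 to 7.82 ± 0.745 FPKM (log2 fold change -0.71, SE 0.08, adjusted p = 0.000908). GABPA, a subunit of the ETS factor GABP, stood at 0.902, 0.709 and 0.863 FPKM in the controls and 1.73, 1.52 and 1.66 FPKM with the shRNA (log2 fold change 0.53, SE 0.07, adjusted p = 0.00148), GABPB1 was higher (log2 fold change 0.28, adjusted p = 0.00655), and YY1 was lower (log2 fold change -0.27, adjusted p = 0.0112), but none of these 3 was called with the trend removed. NRF1 stood at 4.78, 4.68 and 5.02 FPKM in the controls and 4.01, 2.75 and 2.81 FPKM with the shRNA (log2 fold change -0.49, SE 0.12, adjusted p = 0.0132, and -0.31 with an adjusted p of 0.0794 with the trend removed).

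The cytosolic ribosome and the oxidative phosphorylation complexes were also mostly called higher. Of 77 genes of the cytosolic ribosome, 58 were higher and 0 lower, with a median log2 fold change of 0.35, close to the MRP median of 0.34. Trend removal left 31 higher and 6 lower, and under quantile normalization 31 were higher and 2 lower. Of 79 tested nuclear genes of the oxidative phosphorylation complexes, 62 were higher and 4 lower, with a median of 0.51, and after trend removal there were 41 higher and 4 lower. The count of 4 was 1 or 2 without any 1 of the controls or the second or the third shRNA library. These families share the 6 libraries with the MRP genes, and no difference between families was tested.

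Many MRP genes share their start region with another gene. In the GENCODE 29 annotation (GRCh38), 19 pairs had divergent starts within 1000 nt, and both genes were tested in 14. In 8 pairs both were called, 5 in the same direction and 3 in opposite ones, and with the trend removed both were called in 4 pairs, 2 in the same direction and 2 in opposite ones. Pairs of other genes were not counted for comparison. The neighbours named here were chosen after their values were seen. MRPS11 and MRPL46 start 34 nt apart and were both higher (log2 fold changes 0.31 and 0.25), though the MRPL46 call ended without the second or the third control (adjusted p up to 0.0685), with the trend removed (log2 fold change 0.0655, adjusted p = 0.411) and under scaling to a common total or upper quartile. MRPL47 starts 36 nt from NDUFB5, a complex I subunit, which was higher by 0.56 where MRPL47 was higher by 1.30. MRPL36 starts 34 nt from NDUFS6, another complex I subunit (0.56 and 0.40). MRPL52 was higher by 0.48 while SLC7A7, 59 nt away, had a log2 fold change of -0.58. MRPL32 was not called at 0.18 while the proteasome subunit PSMA2 was higher by 1.14.

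Overlapping genes could bear on some values, since the sources used here do not say whether fragments were assigned by strand. Of the 78 MRP genes, 23 overlap a gene with a mean of at least 1 FPKM, 18 of them on the opposite strand, and so do 2 of the 4 lower genes. MRPL49 overlaps 291 nt of FAU, a cytosolic ribosomal protein gene on the opposite strand that stood at 430.2, 362 and 412 FPKM in the controls and 606, 659 and 617 FPKM with the shRNA (log2 fold change 0.65, SE 0.08, adjusted p = 0.000889), and 5189 nt of SYVN1, which was lower (log2 fold change -0.47, adjusted p = 0.00437). MRPS2 overlaps 1751 nt of C9orf116, which was higher (log2 fold change 0.46, adjusted p = 0.00286). MRPS22, called higher at a mean of 2.14 FPKM, overlaps 1624 nt of COPB2 on the opposite strand. COPB2 had a mean of 8.55 FPKM and was higher too (log2 fold change 0.84, adjusted p = 0.000306). The overlaps counted and given here are of whole gene spans, introns included, and the overlap of exons was not measured. Where exons overlap, some fragments cannot be assigned to 1 gene without strand. Another 15 rows had an MRP name with a pseudogene, antisense or divergent-transcript ending. Of the 3 with a mean of at least 1 FPKM, MRPL20-AS1 was lower, MRPL45P2 was higher and MRPS31P4 was not called, and reads shared between MRPL45 or MRPS31 and these copies could be split between them.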

How the data were processed

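Poly(A) RNA of 6 samples was sequenced as paired-end libraries, per the labels' protocols, which also name adipose material. The deposited values are FPKM that the authors computed. The tools named are HISAT2 2.0, StringTie 1.3.0 and Bowtie 0.12.2, per the submitters' processing notes, which give the build as mm8, a mouse build, although 19870 of the 27238 row names are human symbols. The build is therefore not settled. Columns named Sc and Sh were read as scrambled and Bmi1 shRNA with the number of the sample titles. The table gives no counts, so the depth is unknown, no counting interval can be given and count tests were not used. FPKM are scaled to each library's own fragments. 3646 rows share a name with another row. They were tested but are not named.

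Differences of log2(FPKM + 1) were tested with limma 3.58.1 (R 4.3.3) over the 11016 rows averaging 1 FPKM or more, with group as the sole term, a variance trend and Benjamini-Hochberg adjustment over all of them. A call is an adjusted p under 0.05. GC content and length came from the longest protein-coding transcript of GENCODE 29 (all 78 MRP genes found), and their trend was removed from each library's deviations with natural splines of 5 degrees of freedom each. Promoters are RefSeq's.

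The members and lists were chosen with earlier results of these data known. Named with all library values were BMI1, the 8 largest rises (on the log2(FPKM + 1) scale) and all 4 falls among called MRP genes, the 5 highest and 4 lowest in level, MRPL12, MRPS36 and the MRPS18 genes. Up to 4 called genes of smallest p were named from each other mitochondrial expression list. A gene that the rule would name and a marker gene are not reported here. Genes outside the rule (MRPS9, MRPS12, MRPS35, MRPL10, MRPL30, MRPL37, MRPL44, MRPL58) were chosen after their values were seen.

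Alternatives were a pseudocount of 0.1, no filter or a mean of at least 5 FPKM, 3 scalings, no variance trend, weights per library, a replicate block, the trend removal, a test against a fold of 1.2 and each library left out. Only the main fit was tested on simulated data, with independent noise, few changed genes and no trend with GC content or length. The alternatives were not tested in this way.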

Additional observations from a re-analysis of the deposited data

How the results depend on the processing

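With all 6 libraries as deposited there were 48 MRP genes called higher, 4 MRP genes called lower and an MRP median log2 fold change of 0.34. Leaving out each library in turn gave 43 to 49 MRP genes called higher, 3 to 5 called lower, medians of 0.3177 to 0.3661 and BMI1 estimates of -1.585 to -1.217. Of the 52 called MRP genes, 45 were called without each library in turn and 18 under all 19 alternatives. The calls that leaving out 1 library ended were those of MRPS27, MRPL45, MRPL55 (any library but the first shRNA one, adjusted p up to 0.1205), MRPL17 (the third control, the first or the second shRNA library, up to 0.05724), MRPS35 (the second or the third control, up to 0.05444), MRPL46 and MRPL42.

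Removing the trend with GC content and length left 28 MRP genes higher and 10 lower, an MRP median log2 fold change of 0.1006 and 1952 higher calls over all tested genes. With medians over coding transcripts in place of the longest one, an alternative chosen after seeing the data, the MRP median was 0.2042. That fit called 33 MRP genes higher and 6 lower. A test against a fold of 1.2 called 24 MRP genes higher and 2 lower, and 1418 and 872 of all tested genes. Scaling each library to a total of 1000000 gave 9 lower MRP genes and an MRP median of 0.267, while the median of all rows moved by -0.084. A minimum mean of 5 FPKM left 1631 higher and 1847 lower over all genes, and BMI1 was not tested there.

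The replicate number as a block gave 46 MRP genes called higher and 4 called lower. Deviations of libraries with the same number correlated at 0.00374, -0.0791 and -0.0234. Each control correlated more with an shRNA library of another number, at 0.0743, 0.0998 and 0.0208. No pairing by number was thus seen over all rows. Whether the numbers stand for a shared day or batch is not known. The block together with the trend removal gave 23 higher and 8 lower MRP genes with a median of 0.1006, and 1572 higher and 1572 lower over all tested genes.

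Sign changes are listed for MRP genes and named others that were called as deposited or under the alternative. MRP genes called in neither could change sign too, such as MRPS14 (0.26 as deposited and -0.26 with the trend removed). Signs changed with the trend removed for MRPS31 (-0.3313), MRPL32 (-0.2664), MRPS30 (-0.1747), MRPL19 (-0.1036), MRPS36 (-0.3256), MRPS28 (-0.4655), MRPS18C (-0.1891), MRPL13 (-0.003501), MRPL33 (-0.1334), SLIRP (-0.1093), GABPB1 (-0.07286) and YY1 (0.01401). With medians over coding transcripts they changed for MRPS33 (-0.08652), MRPS31 (-0.1356), MRPL19 (-0.1776), MRPL35 (-0.2926), MRPS18C (-0.1178), MRPL42 (-0.2683) and NDUFB5 (-0.06313). The cause was not tested. The number of reads is unknown, so how far depth limits the low genes cannot be given.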
